A study of Mus musculus with 24 samples.

Results

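Chemokines and their receptors were examined in sorted mouse lymphoid cells, leaving aside the pairs best known for seeding and organising the thymus and for lymph node homing (Cxcl12 with Cxcr4, Ccl25 with Ccr9, Ccr7) and Ccl5. The members were all other genes on the array whose name has the form of a CC, CXC, XC or CX3C chemokine or receptor: 48 genes with 59 probes, of 34787 genes with 55681 probes. Each gene was represented by the probe with the highest mean over the 24 arrays. There were 16 receptors, 18 CC ligands, 12 CXC ligands and 2 ligands of the other classes, Xcl1 and Cx3cl1. Of these, 43 genes were kept for testing (14 receptors, 16 CC ligands, 11 CXC ligands and both others), of 33553 genes kept in all. To be kept, a gene needed a probe with signal well above background in all arrays of some group.

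The 24 samples were RNA from cells isolated by flow cytometry, amplified by PCR and measured on single-colour Agilent arrays. The groups called wt were thymocytes of Foxn1 heterozygous (+/-) mice: DN3, the third stage before CD4 and CD8 appear (n = 3), DP, which carry both (n = 3), SP4, with CD4 alone (n = 3), and SP8, with CD8 alone (n = 3). Foxn1 is the transcription factor that thymic epithelium needs to form and work. The groups called tg were DP thymocytes (n = 4) and IgM- B cells (n = 2) from the thymus of Foxn1-deficient (-/-) transgenic mice. The labels name neither the transgene nor the promoter that drives it, nor the age of the animals. IgM- B cells (n = 3) and IgM+ B cells (n = 3) came from wild-type fetal liver and serve as the reference for the tg B cells, so that tissue, age and genotype cannot be told apart in that comparison. A label of the SP4 samples names SP8 as well, and their group was taken from the titles. Replicates 3 and 3A of wt DP, and 6, 6A and 6B of tg DP, share a title number, and the labels do not tie samples to animals. The p-values thus rest on a spread between samples that could be technical in part.

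Chemokines are small secreted proteins that bind receptors coupled to inhibitory G proteins, and a cell with the receptor moves up the gradient. CC and CXC ligands differ in the spacing of their first cysteines, and most receptors bind several ligands of 1 class. In the thymus, stromal and dendritic cells make most ligands, while thymocytes change their receptors as they mature: Ccr4 and Ccr8 are known from thymocytes that have passed positive selection, Cxcr3 from mature CD8 cells, Cxcr6 from innate-like T cells, and Xcl1 is made by CD8 T cells and by epithelium of the medulla. In B cells, Cxcr5 with its ligand Cxcl13 directs mature cells to follicles. Inflammatory ligands such as Ccl3, Ccl4, Cxcl2 and Cxcl10 have short-lived transcripts, and AU-rich stretches in their 3′ ends are known to carry that property.

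The probes behind the results are shown as 30-base stretches of 60-base probes, read 5′ to 3′ along the transcript. The genes of the first set were chosen after their values were seen: Ccl6, Xcl1, Cxcl10 and Cxcl14 for differences described further on, Cxcl13 for its range, and Ccl22 and Cxcl2 as ligands above background in DP and not in SP4. The stretches of Ccl22 and Cxcl2 were placed to hold ATTTA. Capitals mark the pentamer ATTTA, the core of AU-rich elements. Positions are those of the array annotation in build mm9: Ccl6 lies at chr11:83402027-83402056, Cxcl13 at chr5:96389861-96389890, Xcl1 at chr1:166862050-166862079 and Cxcl14 at chr13:56390108-56390137.
Ccl6: aatgtgtctggttctgatacaagcttaagc
Xcl1: tcaccaaacgaggactaaaaatttgtgctg
Cxcl10: ttcctagtgtctagaagtggagcagttatt
Cxcl14: cctcattagaggccgcactgtatggctgtg
Cxcl13: gATTTAttgtcttgcattaaaaccagtaac
Ccl22: agctatagttatATTTAtataggaaagagg
Cxcl2: atttttaaacctATTTAttcattagtttct
Searched on the probe strand, ATTTA was present in 7 of the 48 brightest probes (14.6%), against 7.71% of all 55681 probes. These were the probes of Ccl4, Ccl12, Ccl22, Cxcl2, Cxcl5, Cxcl13 and Cxcr1. A match describes the letters of the probe and does not show an element at work.

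No member was called different between any groups. With limma and Benjamini-Hochberg adjustment over all genes kept, 0 of 43 members passed an adjusted p of 0.05 in any of 8 comparisons, in the test of the difference between both tg comparisons, or in the F test over the 8 groups. The share of all genes that passed was small too: 0.149% for tg against fetal liver IgM- B cells, 0.206% for wt thymocytes against fetal liver B cells, 0.00596% for the difference between the tg comparisons, 0.212% for the F test and 0% for the other 6. In the F test, 5 members had an unadjusted p under 0.05 (11.6% of 43, against 13.6% of all genes): Ccl6, Xcl1, Cxcl15, Cxcr2 and Cxcl10. What follows therefore gives levels, ranges and differences with their errors. Levels are log2 signals relative to the 75th percentile of the same array, so that 0 is the level of a gene brighter than 3 in 4 spots, and they compare arrays for 1 probe, not 1 gene with another. Fewer cells with a transcript and less of it per cell cannot be told apart in these samples.

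Arrays differed in quality, and 3 of them stood apart over all genes. On the first principal component, which held 18.1% of the variance, tg B replicate 23 lay at 238, IgM+ replicate 21 at 116 and tg DP replicate 4 at 46.7, while the other 21 arrays lay between -60.0 and 23.3. On tg B replicate 23, 80.5% of spots were well above background, against 87.4% to 96.6% on the others. It was the lowest of the 24 arrays for 12 of the 43 members and the highest for 5, and 35 of 43 were well above background there. IgM+ replicate 21 was the lowest for 7 members. The lineage markers did not separate all samples as labelled. The mean of 5 B-lineage genes (Pax5, Ebf1, Cd79a, Cd79b and Blnk) was -0.29 to 0.59 in fetal liver IgM- cells, above every thymocyte array (-1.25 to -0.51). It was -0.47, 0.33 and -0.99 in IgM+ cells, of which replicate 21 lay among the thymocytes, and -0.60 and -1.51 in the libraries labelled tg B. The 5 genes did not move as one in the libraries labelled tg B. Cd79a, a chain of the B cell receptor, averaged -3.22 there and 0.40 in fetal liver IgM- cells, and Ebf1, Cd79b and Blnk were also lower. Pax5, a transcription factor of B cell commitment, averaged 1.81 in tg B, 1.57 in IgM- cells and 0.89 to 1.14 in the thymocyte groups. The mean of 5 measured T-lineage genes was -1.12 to 0.40 in thymocytes and -1.82 to -0.89 in B cells, which overlap. Tcf7, a transcription factor of early T cells, was the 1 T-lineage gene called higher in thymocytes (adjusted p = 0.0183).

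Of the receptors, those known from maturing thymocytes (Ccr4, Ccr8, Cxcr3 and Cxcr6) were well above background on all 24 arrays, B cells included. So were 81.1% of all genes kept, and detection thus says little about these receptors. Ccr4, the receptor of Ccl17 and Ccl22, was well above background on 24 arrays and varied little, from -2.75 to -1.38. Its group means were -2.46 in DN3, -1.89 in DP, -2.33 in tg DP, -2.20 in SP4 and SP8 alike, and -1.99, -2.06 and -2.17 in the IgM-, IgM+ and tg B cells. Ccr8, another receptor of selected thymocytes, ranged from -2.04 to 0.09 with a group mean between -1.37 in tg DP and -0.77 in IgM- B cells. Against DP, Ccr4 differed by -0.31 ± 0.29 (SE) in SP4 and in SP8, and Ccr8 by -0.40 ± 0.44 in SP4 and -0.01 ± 0.44 in SP8. The direction was not settled: with the slide as a block Ccr4 differed by 0.09 ± 0.42 in SP4 and 0.27 ± 0.46 in SP8, and Ccr8 by -0.13 ± 0.63 and 0.52 ± 0.68. A second Ccr8 probe, also above background on 24 arrays, gave 0.36 in SP4 and -0.26 in SP8.

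Cxcr3, the receptor of Cxcl9, Cxcl10 and Cxcl11, was -0.46, -0.85 and -1.47 in DN3, -0.75, -0.37 and -1.29 in DP, and -0.97, -1.15 and -1.55 in SP4. It was 0.04, -0.60 and -1.74 in SP8, -0.16, -0.64, -1.14 and -1.80 in tg DP, and -0.80, -0.74 and -0.64 in IgM- B cells. IgM+ B cells gave -0.53, -1.49 and -1.94, and the libraries labelled tg B gave -0.02 and -3.15, the highest but 1 and the lowest of all arrays. The thymocyte groups overlapped for Cxcr3 throughout.

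Cxcr5, the follicle-homing receptor, was at a low level on nearly all arrays. It was -2.82, -3.47 and -3.16 in DN3, -4.72, -4.84 and -2.62 in DP, -4.26, -4.61 and -4.29 in SP4, and -3.66, -4.17 and -4.02 in SP8. The tg DP arrays gave -4.28, -2.83, -4.10 and -4.41. In IgM- B cells it was -3.82, -4.31 and -3.65, in IgM+ B cells 0.42, -3.42 and -5.18, and in the tg B libraries -3.67 and -5.59. IgM+ replicate 19 alone was high, the other IgM+ arrays lay within the thymocyte range or below it, and IgM+ differed from IgM- cells by 1.20 ± 0.94 (adjusted p = 0.833). That array lay on slide 1, the only slide that held both wt thymocytes and fetal liver B cells. With the slide as a block, the difference between thymocytes and B cells went from -0.56 to -4.82 (adjusted p = 0.103). That value links the lineages only through the 3 arrays of slide 1, where IgM+ replicate 19 was the 1 B cell array.

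The other receptors showed the same mix of modest group differences and wide ranges. Ccr2, the receptor of Ccl2 on monocytes and progenitors, ranged from -3.33 to -1.55. Ccr6, known from B cells and T helper subsets, ranged from -2.29 to -0.16. Its values in the libraries labelled tg B, -0.16 and -1.0, lay above those of the IgM- cells at -1.56, -1.15 and -1.47 (difference 0.81 ± 0.48, adjusted p = 0.376). Ccr10, the receptor of Ccl27a and Ccl28, spanned -2.95 to -0.09, and Cx3cr1, the receptor of Cx3cl1 on monocytes and NK cells, -2.32 to 0.22. Cxcr6 ranged from -4.32 to -1.53, and Xcr1, the receptor of Xcl1 on cross-presenting dendritic cells, from -5.22 to -0.86. Cxcr2, a neutrophil receptor, lay between 0.05 and 1.47, with a standard deviation within groups of 0.24, the smallest of the receptors kept. Cxcr7, now called Ackr3, and Ccr1 were well above background on 6 arrays and 1 array and were not kept.

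On their brightest probes, the receptors leaned one way between SP4 and SP8. All 14 receptors had a lower mean in SP4 than in SP8, with a median difference of -0.45 against -0.03 over all genes, of which 53.9% were lower. None of the 14 was called, and Ccr4 (0.00 ± 0.29) and Cxcr1 (-0.01 ± 0.87) counted as lower by next to nothing. The count was 12 of 14 under each of 4 alternatives (median of the array, quantile, normexp, and the authors' deposited log2 values), with medians of -0.41 to -0.29. Quantile scaling and the deposited values shared a median of -0.37 and may not be separate readings. When 1 array was left out, the count was 10 to 13 of 14. On slide 3 alone, which held 2 SP4 and all 3 SP8 arrays, it was 13 of 14. Second probes did not all share the direction. They gave 0.62 for Ccr8 (brightest -0.39), 0.14 for Cx3cr1 (brightest -0.15) and -0.70 for Cxcr6 (brightest -0.27). The mean over the 14 receptors was -2.00, -2.03 and -2.13 in SP4 and -1.53, -1.66 and -1.81 in SP8. These do not overlap, but most single receptors did: only Ccr2 (-0.46 ± 0.34) and Cxcr5 (-0.44 ± 0.94) had all 3 SP4 arrays below all 3 SP8 arrays. The pattern was noticed in these values, and no test over the receptors as a set was made. The DP arrays, at -1.64, -2.07 and -1.89, lay across both groups.

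**Figure D1:**
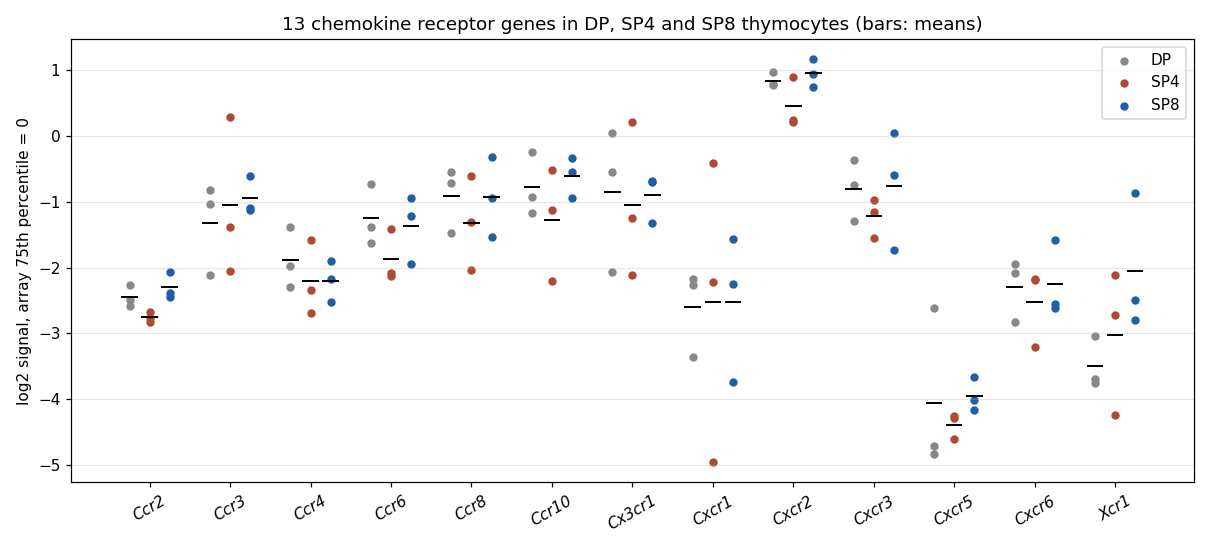
Log2 signal of 13 receptors (y axis, relative to the array's 75th percentile) in DP, SP4 and SP8 thymocytes, 1 point per array and a bar at each mean. The SP4 bar lies at or below the SP8 bar for each receptor drawn, while the points of both groups overlap for all but Ccr2 and Cxcr5.

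Among the CC ligands, Ccl6, a macrophage and myeloid chemokine, came closest to a call. It was -0.90, -1.77 and -1.20 in DN3, -1.71, -1.83 and -1.91 in DP, -0.81, -1.33 and 0.76 in SP4, and -1.26, 0.13 and -1.68 in SP8. It was -1.27, -2.33 and -1.89 in IgM- B cells and -3.00, -2.63 and -3.97 in IgM+ B cells. The tg DP arrays gave -1.10, -2.36, -1.50 and -1.67, and the tg B libraries -2.70 and -2.42. Every IgM+ value lay below every wt thymocyte value. Of the IgM- values, -1.27 and -1.89 lay among those of wt thymocytes and -2.33 below them. Over both B cell groups, wt thymocytes averaged -1.13 ± 0.83 (SD, n = 12) and fetal liver B cells -2.52 ± 0.93 (SD, n = 6). The limma difference was 1.39 ± 0.32 (SE; adjusted p = 0.0706). The adjusted p was 0.0584 to 0.205 when 1 array was left out, the highest without IgM+ replicate 21, where the difference was 1.10. With the slide as a block the difference was 0.89 ± 0.95 (adjusted p = 0.836), and on slide 1, with 1 array on each side, it was 1.67. Ccl6 also had the smallest p of the members in 2 comparisons within lineages: it was 1.36 ± 0.52 higher in SP4 than in DP (adjusted p = 0.671) and 1.37 lower in IgM+ than in IgM- B cells (-1.37 ± 0.52, adjusted p = 0.628).

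Ccl6 is made by macrophages, and markers of these cells were read beside it. All 7 macrophage and monocyte markers (Csf1r, Adgre1, Lyz2, Cd68, Mpo, Itgam and Fcgr1) were well above background on all 24 arrays, as were 81.1% of all genes. Their summed linear level, in units of the 75th percentile, was 207 to 258 in DN3, 250 to 307 in DP, 239 to 282 in SP4, 208 to 245 in SP8, 179 to 217 in IgM- and 195 to 233 in IgM+ B cells. It was 225 to 268 in tg DP and 228 to 320 in tg B. The sum is weighted to Itgam, the brightest of the probes. The mean log2 level of the 7 gave another order: 1.54 to 1.75 in DN3, 1.69 to 1.93 in DP, 1.70 to 2.04 in SP4, 1.84 to 2.01 in SP8, 1.57 to 1.74 in IgM- and 1.51 to 1.64 in IgM+ B cells. That mean was 1.38 to 1.88 in tg DP, which held the lowest array, and 1.46 to 1.75 in tg B. The IgM+ arrays, with the lowest mean Ccl6, had a lower marker mean than every wt DP, SP4 and SP8 array. Their range overlapped those of DN3, IgM- B cells, tg DP and tg B, and Ccl6 was higher in DN3 and tg DP. Of the 7 markers, 0 were called between thymocytes and B cells. Their part in the Ccl6 values was not tested.

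Ccl22, the Ccr4 ligand made by dendritic and medullary cells, was well above background on 8 arrays only. The DP arrays, at -5.24, -4.08 and -3.87, were all above background. No other group was above background on all its arrays, so Ccl22 was kept for testing through DP alone. A high level in DP was thus a condition of its inclusion, and differences from DP are not independent of that filter. The SP4 arrays, at -7.44, -5.57 and -7.64, were all not well above background. With that limit, Ccl22 was at least 1.9-fold lower in SP4 (fitted difference -2.49 ± 1.03, adjusted p = 0.717). The fitted difference was -1.0 ± 1.52 with the slide as a block and -0.48 with normexp background correction, the latter smaller than that bound. A bound of this kind sets the brighter group's mean against the lowest signal well above background on the dim arrays. In SP8, replicate 13 was at -3.85 and the others at -7.18 and -7.30, so that 1 array of 3 was well above background. Ccl17, the other Ccr4 ligand, was steady between -0.78 and 0.51.

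Ccl3 and Ccl4, inflammatory ligands, varied more within groups than between them. Ccl3 was -1.41, -5.63 and -6.90 in the 3 IgM+ arrays, and -3.65, -4.32 and -7.31 in SP8. Ccl4 ranged from -6.32 to -1.42, and within IgM- B cells from -6.32 to -2.86. The standard deviation within groups was 1.45 for Ccl3 and 1.21 for Ccl4, larger than that of 94.0% and 89.1% of all genes. Ccl11, an eosinophil chemokine, spanned -7.52 to -1.66 and Ccl9, a myeloid chemokine next to Ccl6, -3.57 to 0.22.

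A second set of CC ligands was well above background on every array and steady on the brightest probe. Ccl19, a Ccr7 ligand, lay between 1.74 and 2.65, Ccl2 between 1.45 and 2.83, and Ccl26 between -0.83 and 0.00. Their standard deviations within groups were 0.18, 0.25 and 0.22. The other probes of Ccl19 ranged more widely, from 0.64 to 2.44 and from -0.89 to 0.96. Ccl19 and Ccl27a have near-identical copies on mouse chromosome 4, so their signals may be shared between copies. Ccl20, the Ccr6 ligand, was well above background on no array and Ccl28 on 3.

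The CXC ligand Cxcl13 had the widest range of all members, 7.24 log2 units, and a standard deviation within groups of 2.41, above that of 99.8% of all genes. Its values reached from clear signal through levels near the limit of detection to background. It was -1.80, -1.96 and -4.62 in DN3, -7.99, -0.83 and -1.97 in DP, -7.67, -2.04, -1.59 and -1.63 in tg DP, and -4.57, -2.18 and -4.52 in SP4. It was -3.26, -1.03 and -7.31 in SP8, -0.75, -2.65 and -2.29 in IgM- B cells, -4.63, -6.48 and -7.98 in IgM+ B cells, and -7.63 and -7.33 in the tg B libraries. It was not well above background on 7 arrays (-7.99 to -6.48), with 1 each in DP, tg DP and SP8, 2 in IgM+ and both tg B libraries, and lay between -4.63 and -0.75 on the others. The wt DP arrays 3 and 3A, which share a title number, differed by 6.02, the largest difference of any member between those arrays. In tg B it was at least 10.1-fold lower than in fetal liver IgM- cells (fitted difference -5.58 ± 2.08, adjusted p = 0.204), and in IgM+ the fitted difference from IgM- was -4.47 ± 1.86 (adjusted p = 0.653). With normexp background correction these differences were -2.01, which is smaller than that bound, and -1.95.

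Cxcl10, an interferon-induced ligand of Cxcr3, was above background on every array. It was -2.75, -2.40 and -2.44 in DN3, -3.80, -3.19 and -2.86 in DP, -1.60, -2.92 and -3.55 in SP4 and -2.21, -2.12 and -2.01 in SP8. It was -2.90, -1.94, -2.52 and -2.58 in tg DP, -1.97, -2.00 and -2.66 in IgM- B cells, -2.43, -3.08 and -3.79 in IgM+ B cells, and -3.62 and -3.31 in the tg B libraries. All SP8 values lay above all DP values (1.17 ± 0.41, adjusted p = 1), as did those of DN3, whereas SP4 spread across both. A second probe from the RefSeq transcript was above background on 5 arrays only, and its values had a correlation of 0.00 with the brighter probe over the 24 arrays, which was designed on a cDNA clone. The differences between group means on the second probe, mostly from arrays not well above background, had the same sign in tg B against IgM- B cells (-1.34), IgM+ against IgM- (-1.16), DP against DN3 (-1.13), SP8 against DP (0.57) and tg against wt DP (0.52). In SP4 against SP8 the probes opposed each other, with -0.57 on the brighter and 0.49 on the second. Cxcl9, which shares its receptor and inducer, was between 0.25 and 0.99 on 23 arrays and -1.14 on tg B replicate 23.

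Cxcl14, a ligand made by epithelium, had its highest mean in SP4, with arrays at 1.40, 0.25 and 1.07 against -0.04, -0.10 and -0.39 in SP8. It was 0.03, 0.31 and 0.13 in DP and -0.18, -0.07 and 0.04 in DN3. The SP4 and SP8 arrays did not overlap, and the difference of 1.08 ± 0.38 (adjusted p = 0.813) was 1.41 within slide 3. In tg DP it was -0.18, -0.02, 0.10 and -0.21, in IgM- B cells -0.48, -0.09 and -0.56, in IgM+ -0.94, 0.39 and -0.63, and in the tg B libraries 0.57 and -1.17. Cxcl15, a lung chemokine, had a span of 2.45 between group means, the highest in SP8, and was 1.44 lower in SP4 than in SP8 (-1.44 ± 0.63, adjusted p = 0.952). Cxcl16, the Cxcr6 ligand, ranged from -3.49 to -1.03, with 1 value missing in DP.

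Cxcl11 was the brightest member probe and the steadiest, at 7.17 to 7.88, with a standard deviation within groups of 0.15. Cxcl2, a neutrophil chemokine, was -4.82, -4.85 and -3.90 in DP and -5.34, -6.41 and -5.66 in SP4. No SP4 array was well above background, which gives at least 1.7-fold lower in SP4 (fitted difference -1.28 ± 0.78, adjusted p = 0.857). It was -0.11 ± 0.95 with the slide as a block and -0.25 with normexp background correction, both smaller than that bound.

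Xcl1, the ligand of Xcr1, was -3.92, -3.43 and -3.93 in DN3 and above all of these in DP, at -2.93, -2.94 and -1.75, though the difference of 1.22 ± 0.53 was not called (adjusted p = 1). SP4 lay at -4.16, -3.38 and -3.59, while SP8 was split, at -1.97, -2.62 and -4.17. With the slide as a block, DP differed from DN3 by 0.90 ± 0.67 and SP4 from DP by -0.63 ± 0.76. The tg DP arrays gave -4.64, -3.99, -2.59 and -3.38, which overlapped wt DP. IgM- B cells gave -3.25, -3.58 and -3.60, IgM+ B cells -5.51, -4.12 and -4.51, and the tg B libraries -4.48 and -4.56. Cx3cl1, a membrane-bound ligand, stayed between -1.14 and 0.16 on all arrays.

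**Figure D2:**
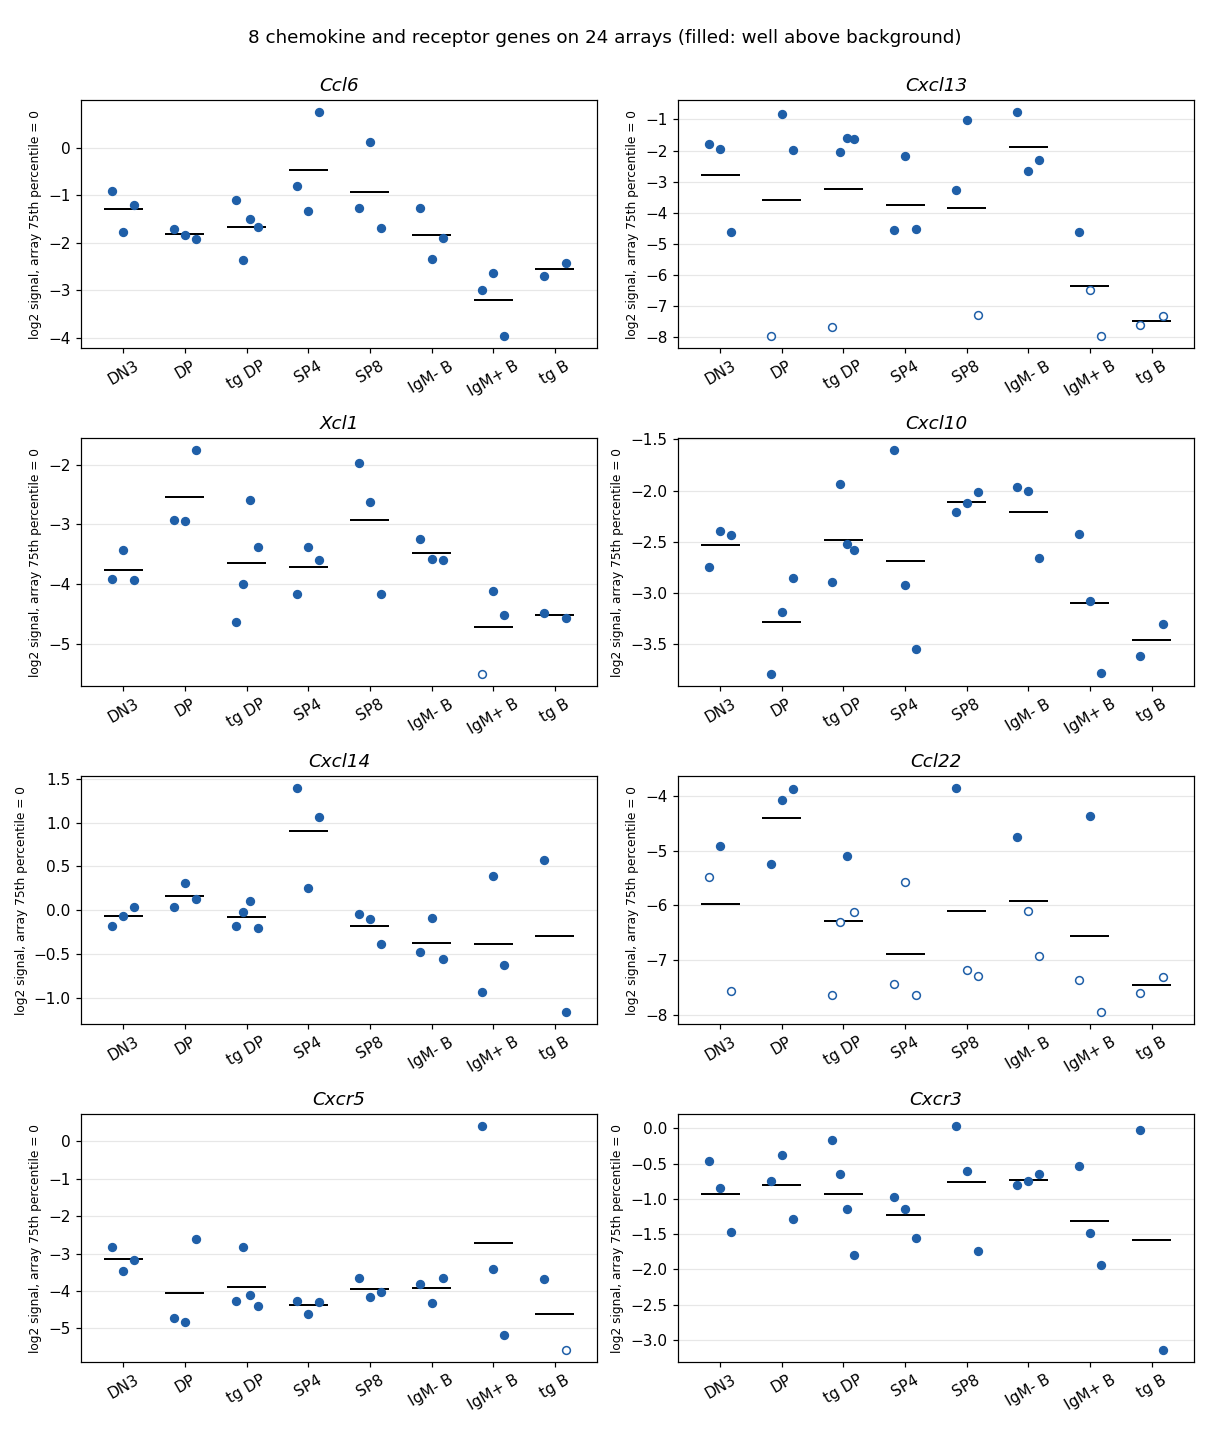
Log2 signal (y axis, array 75th percentile = 0) of 8 members in the 8 groups, 1 point per array with a bar at the mean; open points were not well above background. Cxcl13 and Ccl22 have arrays above and not well above background within a group, and Cxcr5 is high on 1 IgM+ array.

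The comparison of tg with wt DP sets thymocytes of the same stage from Foxn1-deficient transgenic mice against those of heterozygous mice. The lack of Foxn1 and the transgene cannot be told apart in it. The members' median difference was -0.04, against -0.06 for all genes. Of 43 members, 2 had an unadjusted p under 0.05 (4.65%, against 3.28% of all genes): Cxcl1, a neutrophil chemokine, and Xcl1. The groups did not overlap for 1 member, which was higher (2.33%, against 2.64% of all genes), and for 0 lower, against 4.26%. That member was Cxcl1, at -0.97, -1.06 and -0.82 in wt DP and 0.84, -0.71, -0.60 and 0.32 in tg DP, with 0.91 ± 0.42 (adjusted p = 1). On slide 2, which held 6 of these 7 arrays, it was 0.62. Xcl1 was 1.11 lower (-1.11 ± 0.50, adjusted p = 1). Receptors were evenly divided, with 7 higher and 7 lower.

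The libraries labelled tg B were set against fetal liver IgM- B cells. The groups did not overlap for 16 members lower in tg B (37.2%, against 23.9% of all genes) and for 4 higher (9.30%, against 9.04%), and 6 members had an unadjusted p under 0.05 (14.0%, against 17.1%). The median difference was -0.56 for the members and -0.21 for all genes, of which 63.2% were lower. Of 14 receptors, 12 were lower with a median of -0.73. The receptor split moved with the scaling: under quantile scaling and in the authors' deposited log2 values it was 8 lower and 6 higher, with a median of -0.27. Of all genes, 53.6% and 53.2% were then lower. Higher members were led by Cxcl11 (0.41 ± 0.17, adjusted p = 0.239), and Ccr6 and Cxcl5 (0.32 ± 0.24) also did not overlap. The Cxcl11 difference was 0.07 both under quantile scaling (adjusted p = 0.837) and in the authors' deposited log2 values (adjusted p = 0.838). Lower members were led by Cxcl10 (-1.25 ± 0.46, adjusted p = 0.199), Cxcl13 and Cxcr6 (-1.23 ± 0.57, adjusted p = 0.279), which was -0.54 under quantile scaling. Both libraries lay on slide 4 with the IgM- arrays. All 7 thymic epithelium markers (Epcam, Krt5, Krt8, Psmb11, Foxn1, Aire and Prss16) were lower in them too, with a median of -0.54 and 0 called. This was not particular to epithelium. Medians also lay below that of all genes for erythroid (-0.66), endothelial (-0.81), hepatocyte (-1.13) and NK (-0.39) markers. They lay above it for macrophage (0.01), dendritic (0.15) and T-lineage (-0.05) markers. The part of any of these cells in the members' values was not tested. Without replicate 22, which leaves replicate 23 alone and assumes that it varies like the other groups, 5 members were called lower: Cxcl9, Cxcl17, Cxcr2, Cxcr3 and Ccr10, among 5785 genes called in all. Without replicate 23, 0 members were called. For Cxcl9 a second probe, well above background on 18 arrays, gave 0.53 in tg B against IgM- B cells with all arrays, where the brightest gave -0.85. Each of these 5 was lower on replicate 23 than on every other array: Ccr10 at -2.95 against -0.85 on replicate 22, Cxcl17 at -5.91 against -1.51, Cxcl9 at -1.14 against 0.60, Cxcr2 at 0.05 against 0.82, and Cxcr3 at -3.15 against -0.02.

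The difference between both tg comparisons was tested as such. Of the members, 5 had an unadjusted p under 0.05 (against 9.68% of all genes), all more negative in B cells: Cxcl10 (-2.05 ± 0.60, adjusted p = 0.333), Cxcl1 (-1.99 ± 0.66, adjusted p = 0.378), Cxcr2, Cxcl13 and Cxcl9. Cxcl10 was 0.80 higher in tg than in wt DP and 1.25 lower in tg than in fetal liver B cells (difference -1.25). Without tg B replicate 22, members were called in this test and in the F test. The tg B group is then replicate 23 alone, so those calls rest on 1 array and are not read as results about the members.

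**Figure D3:**
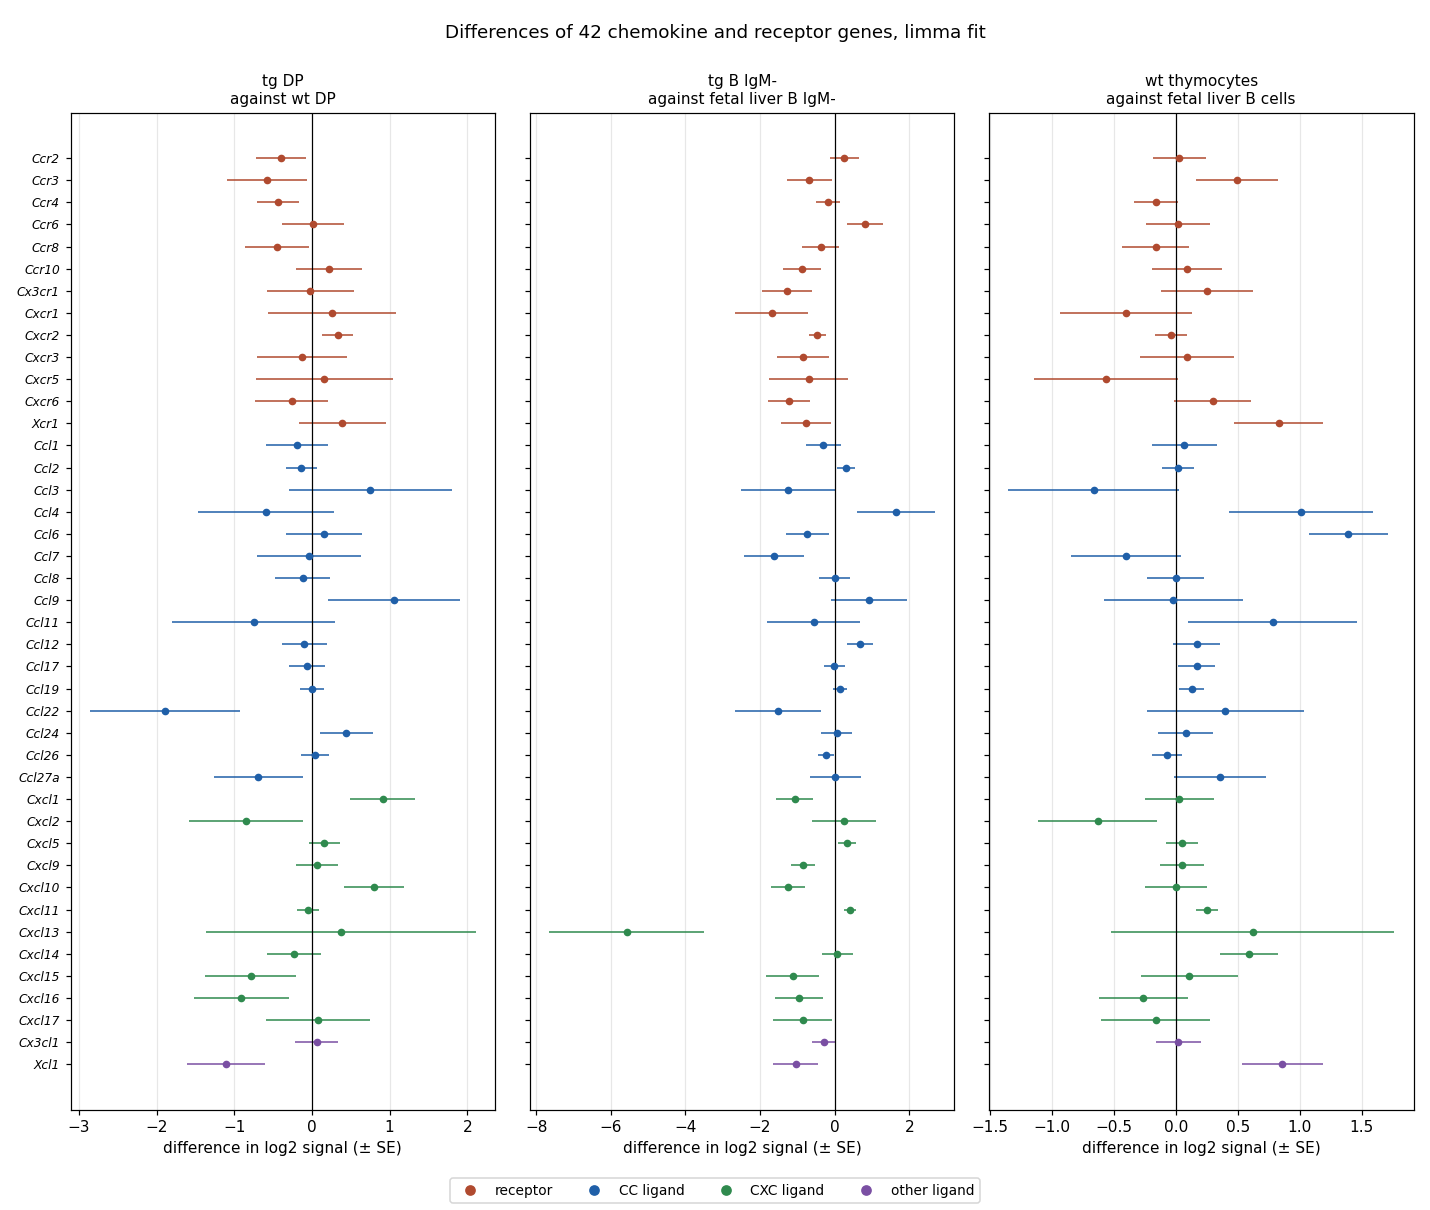
Differences in log2 signal (x axis, ± SE of the limma fit) of 42 members in 3 comparisons, coloured by role, each panel with its own scale. Most bars cross or lie near 0 in tg DP and in thymocytes against B cells, and in tg B Cxcl13 lies farthest, at -5.58.

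IgM+ against IgM- fetal liver B cells follows cells that gain surface IgM. The groups did not overlap for 5 members lower in IgM+ (11.6%, against 11.3% of all genes) and 0 higher, against 2.12%, and 4 members had an unadjusted p under 0.05 (9.30%, against 7.00%). These 4 were Ccl6, Cxcl13, Xcl1 (-1.24 ± 0.53, adjusted p = 0.661) and Cxcl10 (-0.89 ± 0.41, adjusted p = 0.697), all lower in IgM+. The first 3 had every IgM+ array below every IgM- array.

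DP against DN3 follows thymocytes past the first T cell receptor checkpoint. The groups did not overlap for 2 members higher in DP, Xcl1 and Ccl2 (4.65%, against 6.35% of all genes), and 3 lower, Cxcl10, Ccl27a and Cxcl17 (6.98%, against 5.56%). Xcl1 was the 1 member with an unadjusted p under 0.05 (2.33%, against 2.07%). Ccl2 differed by 0.18 ± 0.21 and Cxcl10 by -0.75 ± 0.41. For Ccl27a, a skin chemokine, the probes opposed each other: the brightest gave -1.01 and the others 1.23 and 1.28.

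SP4 against DP and SP8 against DP follow the step to single-positive cells and share the DP arrays. All 3 DP arrays lay on slide 2, which held no SP4 or SP8 array, so stage and slide cannot be told apart within any slide, and the fit with the slide as a block links them only through arrays of other groups. In SP4, 1 member was higher with no overlap, Ccl6 (2.33%, against 5.68% of all genes), and 6 were lower (14.0%, against 9.75%), among them Ccl22, Xcl1 (-1.17 ± 0.53, adjusted p = 0.757) and Cxcl2. Ccl22 is counted here although it passed the filter through the DP arrays alone. In SP8, 5 were higher (11.6%, against 4.92%), led by Cxcl10, Xcr1 (1.45 ± 0.60) and Ccl6 (0.88 ± 0.52), and 4 were lower (9.30%, against 5.77%), led by Ccl7 (-1.57 ± 0.72), a monocyte chemokine, Ccl12 (-0.46 ± 0.31) and Cxcl14 (-0.33 ± 0.38). For SP4 and SP8, 3 members each had an unadjusted p under 0.05, against 6.44% and 2.14% of all genes. The smallest adjusted p was 0.671 in SP4 and 1 in SP8. With the slide as a block, Ccl7 in SP8 went to -3.14 ± 0.93 and Xcl1 in SP4 to -0.63 ± 0.76, while Ccl6 in SP4 was 1.16 ± 0.81 and Cxcl10 in SP8 1.03 ± 0.63.

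In SP4 against SP8, 1 member was higher with no overlap, Cxcl14 (2.33%, against 4.01% of all genes), and 3 were lower, Ccr2, Cxcl9 (-0.38 ± 0.29) and Cxcr5 (6.98%, against 6.67%). An unadjusted p under 0.05 was reached by 4 members (9.30%, against 5.13%): Cxcl14, Ccl7 (1.60 ± 0.72), Cxcl15 and Cxcr2 (-0.50 ± 0.21, adjusted p = 0.926).

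Wt thymocytes against fetal liver B cells compares lineages, with tissue and age alongside. For 0 of 43 members did the 12 thymocyte and 6 B cell arrays not overlap, against 0.140% of all genes higher and 0.304% lower. An unadjusted p under 0.05 was reached by 5 members, all higher in thymocytes (11.6%, against 13.3% of all genes). After Ccl6 these were Cxcl11 (0.25 ± 0.09, adjusted p = 0.242), Xcl1 (0.86 ± 0.33, adjusted p = 0.250), Cxcl14 (0.59 ± 0.23, adjusted p = 0.268) and Xcr1 (0.83 ± 0.36, adjusted p = 0.332). With the slide as a block Cxcl11 turned to -0.10, Xcr1 was 0.10, and Xcl1 and Cxcl14 were 1.50 and 0.71. A second Cxcl11 probe, well above background on 24 arrays, gave 0.00 without the block. Slides and lineages were nearly the same division: slide 1 alone held both, and their parts cannot be told apart on the others.

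Members measured by more than 1 probe gave a second reading of the same RNA. The probes of Cxcr6 overlap by 50 of 60 bases, shifted by 10, and are shown because they nearly share a target. Capitals mark the shared bases.
Cxcr6, upstream: aatgtataaaACAGAGCTTAAGACTTTAAC
Cxcr6, downstream: ACAGAGCTTAAGACTTTAACAAATACAAGA
Over the 24 arrays their values had a correlation of 0.72, and of 0.64 for the probes of Cxcl11, which lie close together in the transcript. For tg B against IgM- B cells the downstream Cxcr6 probe gave -1.23 and the upstream probe -0.27. For the other members with several probes the correlations with the brightest were 0.50 for Cxcl9, 0.46 and 0.39 for Ccl19, 0.45 for Ccl1, 0.12 for Ccr8, 0.00 for Cxcl10, -0.15 for Cx3cr1, and 0.07 and 0.15 for Ccl27a. For Ccr8, DP differed from DN3 by 0.01 on the brightest probe and by -0.91 on the other. These correlations describe arrays that share amplification and hybridisation, and the points are not independent of group.

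**Figure D4:**
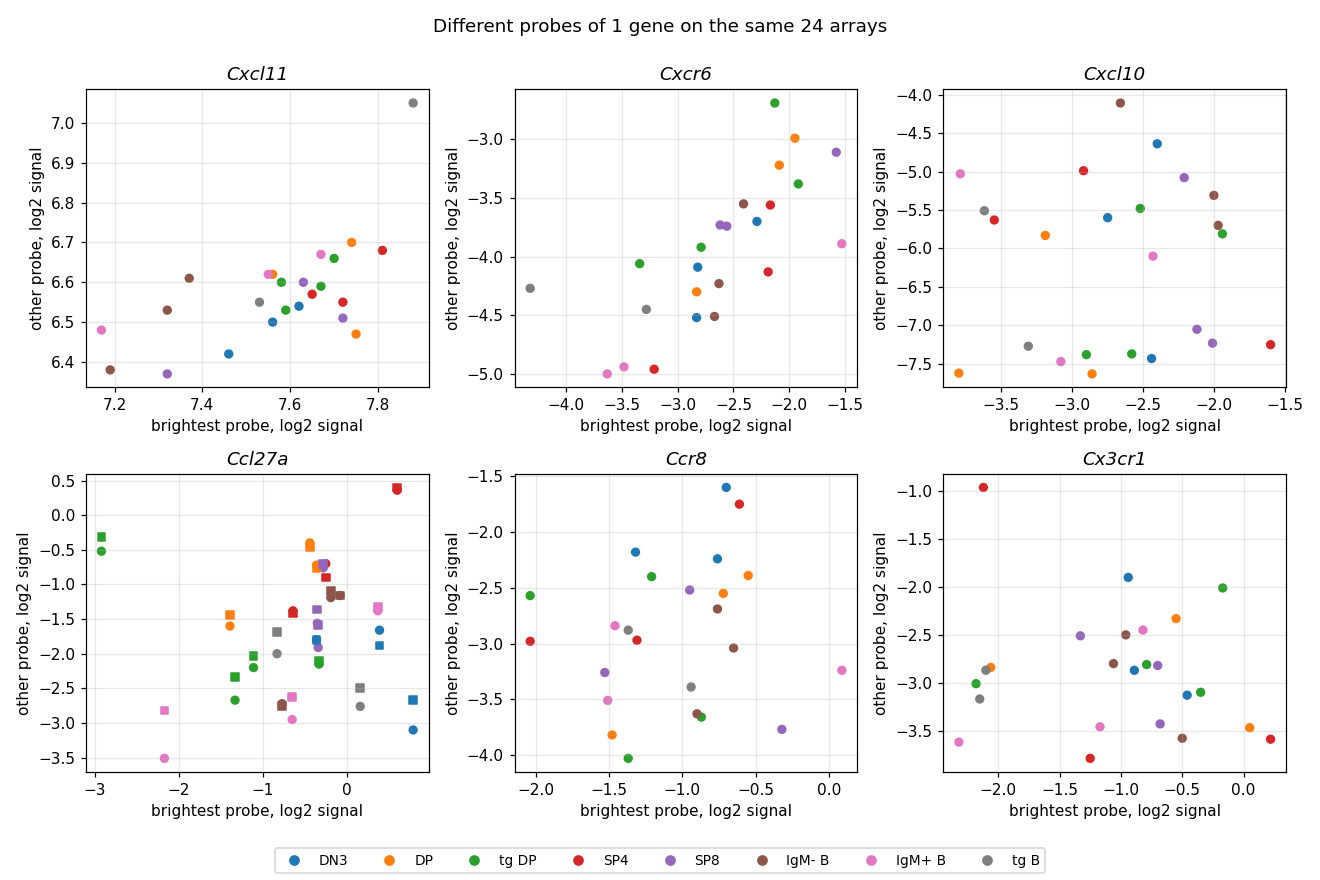
Log2 signals of 6 members with several probes, the brightest on the x axis and the other on the y axis (for Ccl27a, circles and squares are its 2 other probes), 1 point per array coloured by group, on scales set per panel. Cxcl11 and Cxcr6 rise together on both probes, whereas Cxcl10, Ccr8 and Cx3cr1 form clouds.

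The members varied within groups. The median standard deviation within groups was 0.64 for the members and 0.50 for all genes. Of 43 members, 31 (72.1%) were well above background on all 24 arrays, against 81.1% of all genes, and 18 (41.9%) ranged over more than 3 log2 units between arrays, against 34.2%. The wt DP arrays 3 and 3A differed by a median of 0.42 over the members, and 2 and 3, which share no number, by 0.32. The tg DP arrays 6, 6A and 6B differed from each other by 0.32 to 0.48 and from array 4 by 0.55 to 0.67.

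Genes that act with chemokine receptors were read from a list of 30 (atypical receptors, G protein subunits, arrestins, regulators of G protein signalling, and Dock2, Rac2, Coro1a and other migration genes), of which 28 were measured. None was called in any comparison. In thymocytes against B cells, 22 of 28 were higher, with a median of 0.16 against 0.05 for all genes. The smallest adjusted p was 0.0996, for Coro1a, an actin regulator that T cells need to leave the thymus. In IgM+ against IgM- B cells, 22 of 28 were lower, with a median of -0.38 against -0.14.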

How the data were processed

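Each of 24 RNA samples was hybridised to 1 single-colour array of design 028005. Per the file headers, the deposited spot intensities come from Feature Extraction 10.7.3.1. The authors' log2 values, deposited as a series matrix, had a median of 7.93 per column and the order of each column's own array; how they were made is not stated in the sources used here. Without control spots (3671 of 62976) and 248 non-uniform values, which became missing, spots of a probe were averaged. From each log2 processed signal the 75th percentile of its array was subtracted. Of the probes, 26762 were named by accession, 3819 by symbol and 639 by synonym through a RefSeq table, and 24461 kept the file's name. Groups were compared with limma 3.58.1 in R 4.3.3 on 24 arrays, with a mean for each group and nothing else, and p-values were adjusted over all genes. The fit was run on simulated data without slide effects or outlying arrays, which checks its estimates and not the number of calls. The number of arrays limits the precision. Genes with values in the text were, per comparison, up to 3 higher and 3 lower members with the smallest p among those without overlap, 17 fixed members, and the 6 with the widest span of group means; others named were chosen after their values were seen. The members and lists were chosen with earlier results of these data known. Alternatives were other backgrounds, scalings, filters and probe rules, the slide as a block, shared title numbers averaged, the compared arrays alone, and each array left out. Marker lists used were macrophage, thymic epithelium, T lineage, B lineage and the 30 genes acting with receptors. Dendritic, erythroid, hepatocyte, NK and endothelial lists were used for the tg B libraries only. Exon and UTR positions of the probes were not analysed here. Values of 1 member and 1 marker are not reported here.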

Additional observations from a re-analysis of the deposited data

Results flagged for a closer look

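Among the 43 members in the group of 4 tg DP arrays, 2 had 1 array far from the others by Dixon's ratio, in the same library. The ratio is the gap to the nearest array over the whole range. Chance gives about 1 in 20 groups, so a count of this size would be reached by chance among 43 members. Cxcl13 was -7.67 in tg DP replicate 4, with the nearest array at -2.04 (ratio 0.926). Cxcl2 was -7.62 in the same replicate, with the nearest at -4.85 (ratio 0.842). Replicate 4 was the 1 tg DP array on slide 1 and the 1 that shares no title number with the others, and neither gene was well above background there.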

How the results depend on the processing

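The number of members called was 0 under every alternative tried, in every comparison, except without tg B replicate 22: 5 for tg B against IgM- B cells, 4 for the difference between the tg comparisons and 5 in the F test. Leaving out 1 array thus gave 0 to 5, 0 to 4 and 0 to 5 there, and 0 elsewhere. Of the named differences, 1 turned: Ccl27a, DP against DN3, was 0.50 with the mean of all probes. With normexp background correction, Xcl1 went from -1.11 to -0.47 in tg against wt DP and from -1.24 to -0.36 in IgM+ against IgM- B cells, and Ccl7 in SP8 against DP from -1.57 to -0.46. Leaving out tg DP 4, IgM+ 21 and tg B 23 together, chosen after seeing the data, also gave 0 members. No paired analysis was possible because the groups compared share no replicate numbers. Groups of 2 to 4 arrays and probes near background (Cxcl13, Ccl22, Cxcl2 and Ccl3) limit what could be called.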
